A study of Arabidopsis thaliana with 64 samples.

Results

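The genes described here are 8 Arabidopsis genes known for their response to low oxygen: AT1G19530, AT5G10040, AT4G39675, AT4G10270, AT4G24110, AT3G03270, AT3G23170 and PDC2 (locus AT5G54960). They were found on the array through the gene names of the platform annotation, which gave 9 of 13824 probes, and they make up 8 of the 5164 genes named on it. AT1G19530 has 2 probes and every other member has 1. The genes were selected on their ratios between lines and comparators in these same arrays, so those ratios are given below as a description. Where the number of members that reach an adjusted p under 0.05 is printed for them, it is part of that description and supports nothing.

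When oxygen runs short, plant cells switch from respiration to fermentation, in which pyruvate decarboxylase turns pyruvate into acetaldehyde on the way to ethanol. Transcription factors of the ethylene response factor family, group VII, are broken down in air through their N-terminal cysteine and persist when oxygen is low, and they switch on a core set of genes in both shoots and roots. PDC2 encodes a pyruvate decarboxylase, AT3G03270 a universal stress protein known as HRU1, and AT4G10270 a member of the wound-responsive protein family. AT1G19530, AT5G10040, AT4G39675, AT4G24110 and AT3G23170 are known for their rise under low oxygen, and their molecular functions are not given here.

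The series holds 64 arrays with 2 channels, and each array sets total RNA of 1 Arabidopsis line beside total RNA of a comparator. The 14 single lines CO, FCA, FD, FE, FHA, FPA, FT, FVE, FWA, FY, GAI, GI, SOC1 and FLC20 were each grown under days of 8 h and of 16 h of light, with 2 arrays per day length. The comparator was the wild type (WT, called Ler in 1 label of FHA) for 13 lines at 12 days of age, and C24 for FLC20 at 9 days. In 4 further groups the double mutants FCAVRN1 and FCAVRN2 were set against FCA or against WT, also at 12 days. The labels name no low oxygen treatment, and no source used here states the alleles, the plant part sampled or which dye was which. Day lengths follow the titles of the samples. The descriptions disagree with them for FVE_16h and for both FCAVRN1 groups.

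Values are log2 ratios, and a positive value is taken as higher in the line than in its comparator. That direction is likely and not settled: the descriptions compare the line to the comparator, and channel 1 of the unswapped arrays holds the line. With the opposite direction every lower value below becomes a higher one. Swapped arrays were taken as already turned by the authors, because the 2 arrays of a group correlated positively in 22 of 32 groups once the mean of each dye orientation was removed, negatively in 10 and below -0.3 in 2. Before that removal the median r of the 2 arrays of a group was only 0.029, so the basis is weak. Of 992 pairs of arrays from different groups with the same orientation, 7 correlated below -0.3, the lowest at -0.46. If the swapped arrays were instead still to be turned, none of the member calls named below remained. The FWA_16h replicate 2 array stands apart for AT3G03270 and AT3G23170, and its results are given with and without it. In RNA of whole samples, fewer cells of a type and less RNA per cell cannot be told apart.

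AT1G19530 had the largest departures of the 9 member probes, in the lines GI and FD. GI, GIGANTEA, is a nuclear protein of the circadian clock and the photoperiod pathway, and FD is a bZIP transcription factor that acts with FT at the shoot apex. On probe SP0000118563 of AT1G19530 the GI arrays read -1.49 and -1.01 at 8 h and -1.30 and -1.81 at 16 h. Those of FD read -0.98 and -1.39 at 8 h and -0.95 and -1.38 at 16 h. The mean was -1.40 ± 0.22 (standard error of the fit, 3 replicates) in GI, which is 2.64-fold lower than in the wild type, and -1.18 ± 0.18 (4 arrays) in FD, which is 2.26-fold lower. All 8 of these arrays lay further below 0 than every array of CO, FCA, GAI, SOC1 and FLC20. In order from the lowest, SP0000118563 was 2nd of 13824 probes in GI and 7th in FD.

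FWA, a homeodomain gene whose late-flowering alleles express it outside the seed, came next for SP0000118563 at -0.77 ± 0.18 (4 arrays), and its 4 arrays lay between -0.998 under 8 h and -0.62. The lines that follow were less uniform. FT averaged -0.69, with -0.76 and -0.85 at 8 h but -1.11 and -0.04 at 16 h. FE averaged -0.65, and its arrays ran from -1.17 to exactly 0. FVE averaged -0.51, with the swapped arrays at -0.97 and -1.23 and the unswapped ones at 0.05 and 0.10. At the other end, FCA averaged -0.02, FLC20 -0.09, CO -0.12 and GAI -0.18, and their arrays lay on both sides of 0 or at it. All 14 line means were below 0. Neighbours in that order did not differ beyond their error: 0 of 13 gaps exceeded 2 standard errors, and the widest, 0.41 between FWA and FD, was 1.64 standard errors.

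The other probe of AT1G19530, SP0000117005, did not follow. Its line means ran only from -0.09 in FT to 0.16 in FVE, and it read -0.02 ± 0.07 in FD and less than 0.01 away from 0 in GI. Over the 32 group means the 2 probes of AT1G19530 had a Pearson r of 0.19 and a Spearman rho of 0.16. Their spread differed as well: over the 64 arrays SP0000118563 had an SD of 0.53, the 137th highest on the array, and SP0000117005 one of 0.14, below the median probe at 0.20. Which part of the transcript each probe covers is not stated in any source used here, and every statement on AT1G19530 below concerns SP0000118563 unless the other probe is named.

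AT5G10040 showed the same lines at its low end. Its FD arrays read -0.62 and -0.68 under 8 h and -0.65 and -1.75 under 16 h, with a mean of -0.93 ± 0.21 (4 arrays), 1.90-fold lower than the wild type. The GI arrays read -0.78, -0.16, -0.92 and -1.70, with a mean of -0.89 ± 0.26 (3 replicates). All 8 were below 0, and the lowest was a 16 h array in each line. FVE at -0.61, FT at -0.55 and FY at -0.54 followed. The FVE mean rests mostly on 1 array, FVE_16h replicate 1 at -1.69, beside 3 arrays at -0.37, -0.36 and 0.002. The highest means were 0.02 in FLC20 and -0.03 in GAI, and the 13 gaps between neighbouring lines were at most 0.28, or 0.85 standard errors.

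AT4G39675 was lowest in the same lines. Its GI arrays read -0.33 and -1.19 at 8 h and -0.24 and -1.06 at 16 h, with a mean of -0.70 ± 0.26 (3 replicates). Its FD arrays read -0.09 and -0.59 at 8 h and -0.95 and -1.01 at 16 h, with a mean of -0.66 ± 0.22 (4 arrays). In GI the swapped arrays were the higher ones at both day lengths, and in FD the 8 h arrays were the higher ones. The order then departs from that of AT1G19530. FLC20, where AT1G19530 averaged -0.09, stood at -0.53 for AT4G39675, with arrays at -1.31, -0.32, -0.21 and -0.26. FWA, the third lowest line of AT1G19530, stood at -0.12 for AT4G39675. The lowest single value of the gene was -1.83, on FVE_16h replicate 1, the array on which AT5G10040 read -1.69.

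AT4G10270 moved over a narrower range. The GI arrays read -0.70, -0.68, -0.20 and -1.01, so all 4 were below 0, and their mean was -0.65 ± 0.18 (3 replicates), 1.57-fold lower than the wild type. FD averaged -0.40 ± 0.15 (4 arrays), while SOC1 at 0.02 and GAI at -0.01 were highest. For AT4G24110 the means ran from -0.30 in GI to 0.23 in FLC20, and the GI mean came from arrays at -0.93, 0.20, exactly 0 and -0.45, which lie on both sides of 0.

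**Figure D1:**
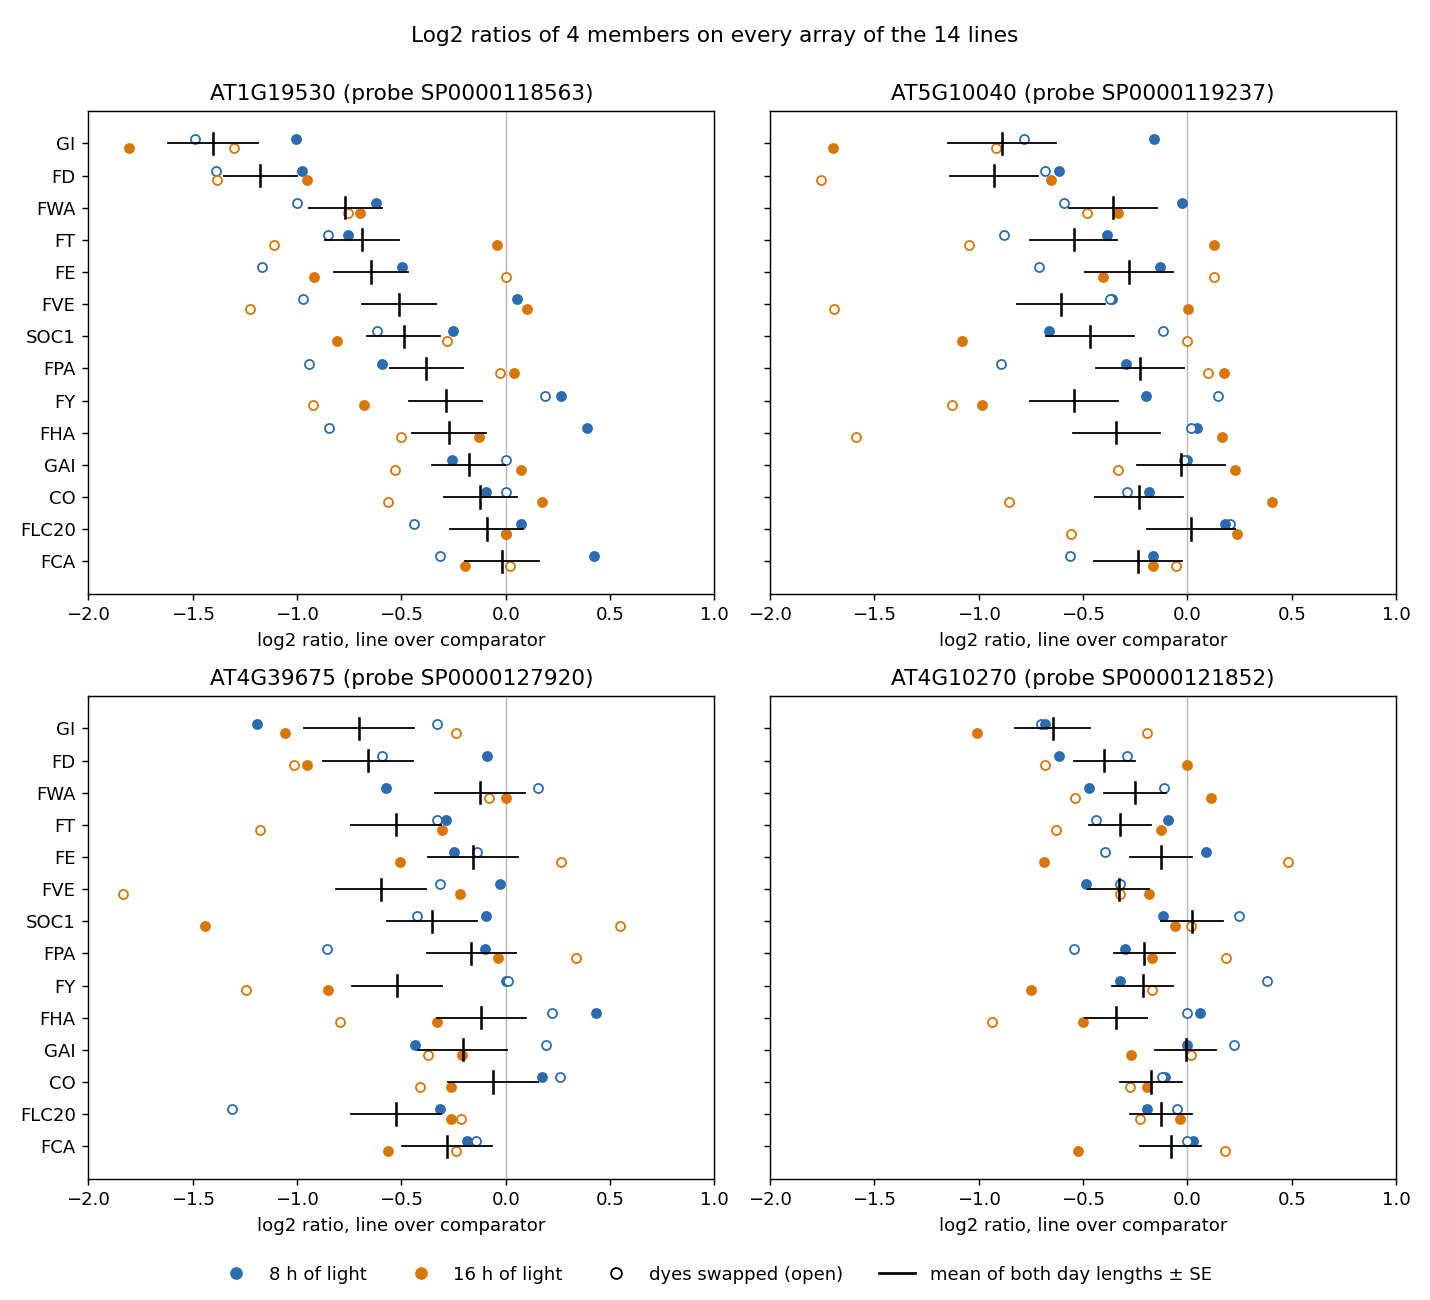
Log2 ratios (horizontal axis) of AT1G19530, AT5G10040, AT4G39675 and AT4G10270 on each array of the 14 single lines (vertical axis, ordered by AT1G19530). Points are arrays, blue for 8 h and orange for 16 h of light, open where the dyes were swapped, and black bars are the fitted line mean with its standard error. GI and FD hold the lowest means of all 4 genes, for example -1.40 and -1.18 for AT1G19530.

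PDC2, the gene of the fermentation step, did not follow the genes above. Its GI arrays read 0.22 and 0.01 under 8 h and 0.62 and 0.33 under 16 h, so that 4 of 4 arrays were above 0. Their mean, 0.30 ± 0.09 (3 replicates), was the highest of the 14 lines and 1.23-fold above the wild type. FD followed at 0.14, with 0.53 on FD_16h replicate 2 and between -0.05 and 0.04 on the other 3 arrays. The other 12 lines lay between -0.06 in FVE and 0.10 in GAI. PDC2 had an SD over all arrays of 0.17, below the 0.20 of the median probe.

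AT3G03270 and AT3G23170 moved alike, though 247 and 293 other probes also exceeded an r of 0.8 with them over the 32 groups. Both genes were highest in FWA, at 0.27 ± 0.15 and 0.47 ± 0.16 (4 arrays each). These means rest on 1 array: FWA_16h replicate 2 read 1.42 for AT3G03270 and 1.90 for AT3G23170, the highest of the 64 arrays for both, whereas the other 3 FWA arrays lay between -0.34 and 0.12 for AT3G03270 and between -0.11 and 0.17 for AT3G23170. Without that array the FWA means were -0.08 for AT3G03270 and 0.02 for AT3G23170. Without FWA_16h replicate 1 they were 0.61 and 0.92. At the low end stood FLC20 for AT3G03270, at -0.37 ± 0.15, and GAI for AT3G23170, at -0.34. On GAI_8h replicate 1 both genes had their lowest value of the series, at -0.79 and -0.85. In GI, AT3G23170 read 0.63, -0.27, 0.47 and 0.15, and in FD it lay between -0.22 and 0.18.

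**Figure D2:**
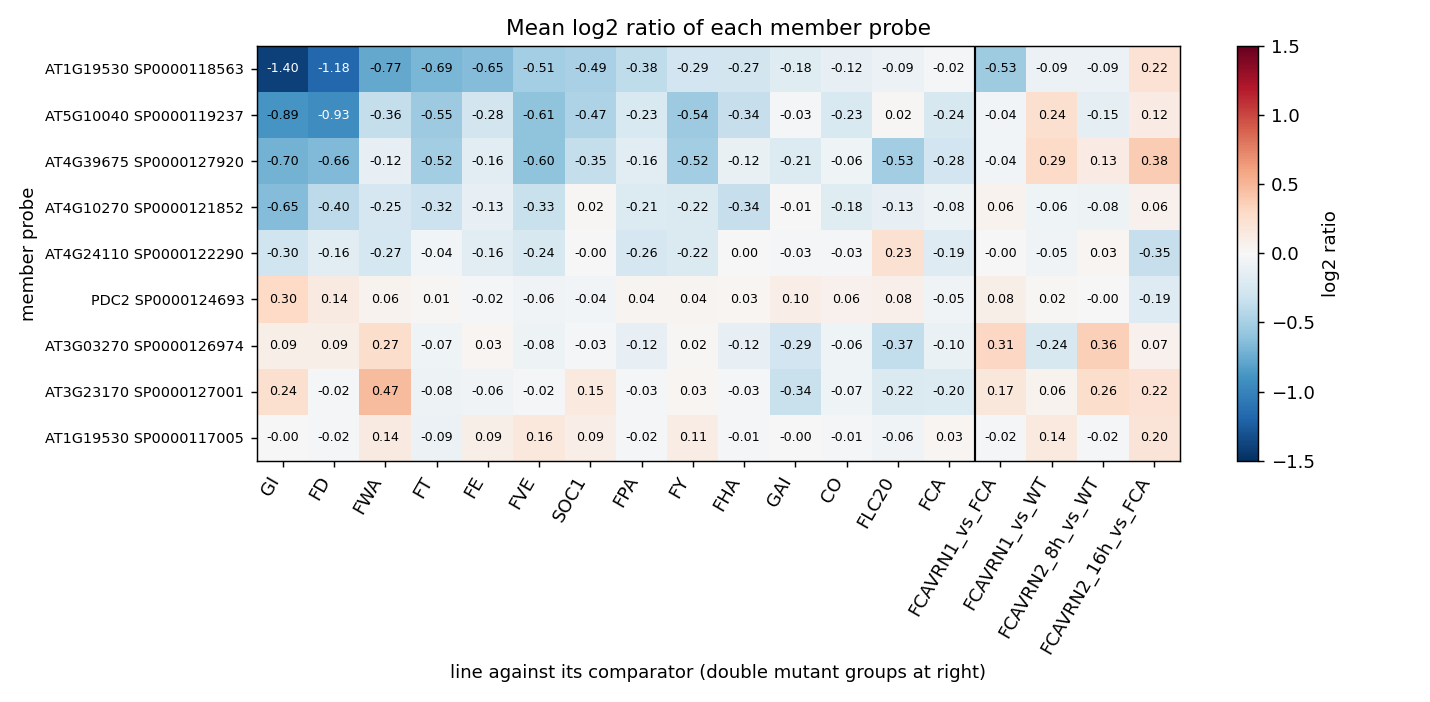
Fitted mean log2 ratio of the 9 member probes (rows) in the 14 single lines and the 4 double mutant groups (columns, right of the line). Blue is lower and red higher than the comparator. The upper rows are darkest in GI and FD, PDC2 is highest in GI at 0.30, and SP0000117005 of AT1G19530 stays near 0.

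Over the 14 lines and 9 probes, 97 of 126 estimates were below 0, with a median of -0.11, beside 97148 of 193536 below 0 and a median of -0.0005 over all probes. An adjusted p under 0.05 was reached by 4 of the 126, all lower: AT1G19530 in FD, GI and FWA, and AT5G10040 in FD. Over all probes and lines, 0.521% were called lower and 0.646% higher, in FD 3.06% lower and 2.79% higher, and in GI 0.723% lower. Since the members were selected on these ratios, nothing is read from the count, and the calls are named only to show which values they are. The call of AT5G10040 in FD was lost without FD_8h replicate 2 or FD_16h replicate 2, and that of AT1G19530 in FWA without FWA_8h replicate 1, FWA_8h replicate 2 or FWA_16h replicate 2. Without FVE_16h replicate 2 the count was 8, and without FWA_16h replicate 1 it was 7. All lines but FLC20 share the wild type as comparator, and the sources used here do not say whether 1 wild type extract served several arrays. With the other lines' mean as the reference instead, AT1G19530 stood at -0.94 ± 0.22 in GI, -0.70 ± 0.18 in FD and -0.25 ± 0.18 in FWA, AT5G10040 at -0.53 ± 0.22 in FD, and 0 of the 126 were called.

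Averaged over the 13 lines set against the wild type, AT1G19530 stood at -0.53 ± 0.05 and was below 0 on 39 of 52 arrays. AT5G10040 stood at -0.44 ± 0.06 with 39 of 52 arrays below 0, AT4G39675 at -0.34 ± 0.06 with 40, AT4G10270 at -0.24 ± 0.04 with 37, and AT4G24110 at -0.14 ± 0.03 with 32. PDC2 stood at 0.05 ± 0.02, with 31 of 52 arrays above 0. AT3G03270, AT3G23170 and SP0000117005 lay between -0.03 and 0.04. Of all probes 11.8% were called lower in this mean, and 5 of the 9 member probes were among them. The mean is made of the ratios the genes were selected on, so nothing is read from this count either.

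AT1G19530 was higher in the autonomous lines FCA, FPA, FVE and FY than in the photoperiod lines GI, CO, FT, FHA, FD, FWA and FE by 0.43 ± 0.11, as a difference of log2 ratios. For the other 8 member probes that difference lay between -0.12 and 0.12. The classes overlapped for AT1G19530. CO at -0.12 and FHA at -0.27 lay above FY at -0.29, FPA at -0.38 and FVE at -0.51. FWA, FT and FE, at -0.77, -0.69 and -0.65, lay below all autonomous lines, and GI and FD lowest, at -1.40 and -1.18. The contrast is made of the same ratios and is a description too. None of the 9 was called in it by limma, in which 0.311% of all probes were. An unadjusted p under 0.05 was reached by 1 of the 9, beside 1311 of all 13824 probes.

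The genes that were low in GI and FD also varied together over the 32 groups. Across the group means, AT1G19530 and AT5G10040 had a Pearson r of 0.77 and a Spearman rho of 0.75, and r was 0.74 without both GI groups. AT5G10040 had an r of 0.71 with AT4G39675 and of 0.69 with AT4G10270. AT1G19530 had an r of 0.69 with AT4G10270 and of 0.58 with AT4G39675. The genes were selected on these same ratios, so likeness among those low in GI and FD follows in part from the selection. The 32 points also share their arrays' labelling and normalization and may share wild type RNA. These values are therefore descriptions. Differences between the 2 arrays of a group, where the line is the same, were also correlated over 31 groups. Their r was 0.58 for AT1G19530 with AT5G10040, 0.61 with AT4G39675 and 0.38 with AT4G10270, 0.59 and 0.57 for AT5G10040 with AT4G10270 and AT4G39675, and 0.31 for AT4G10270 with AT4G39675. How often other pairs of probes reach such values within groups was not tested. PDC2 ran against AT1G19530 with an r of -0.53, which was -0.32 without both GI groups. AT3G03270 and AT3G23170 had an r of 0.84 and a rho of 0.71 over the groups, 0.73 without FWA_16h, and an r of 0.83 between arrays of a group, while their r with AT1G19530 was -0.20 for each.

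**Figure D3:**
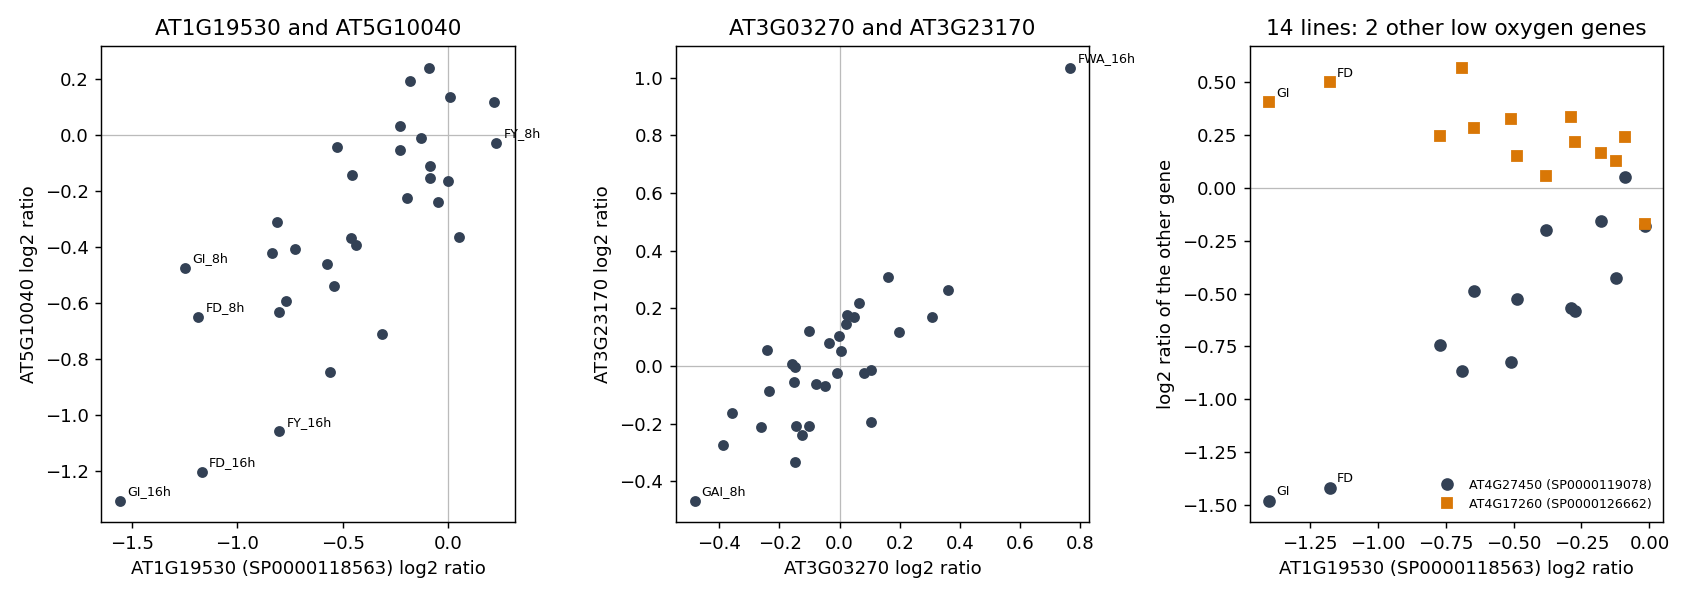
Left and middle: mean log2 ratios of the 32 groups for AT1G19530 against AT5G10040 (r 0.77) and for AT3G03270 against AT3G23170 (r 0.84), 1 point per group. Right: line means of the 14 single lines for AT4G27450 (circles) and AT4G17260 (squares) against AT1G19530. GI and FD lie at the lower left of the left panel, FWA_16h alone at the upper right of the middle one, and in the right panel AT4G27450 is lowest in GI and FD, where AT4G17260 is above 0.

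Among all named probes of other genes, those most like AT1G19530 over the 32 groups were 3 probes of AT4G27450, an aluminium-induced family protein that also belongs to the core low oxygen genes, with r of 0.87, 0.81 and 0.77. The same 3 probes came first for AT5G10040, with r of 0.86, 0.83 and 0.83, and for AT4G10270, with r of 0.78, 0.71 and 0.70. Without both GI groups the values of AT1G19530 fell to 0.82, 0.75 and 0.66. Those of AT5G10040 fell to 0.77, 0.76 and 0.71 without GI_16h and FD_16h. Without FHA_16h and GI_8h those of AT4G10270 were 0.77, 0.73 and 0.69. Over all 32 groups an r above 0.8 was rare: of 13823 other probes, 3 exceeded it with AT1G19530, 6 with AT5G10040 and 4 with AT4G39675. For AT4G39675 the nearest were AT4G38820, AT5G14730 and AT2G31710, at 0.84, 0.81 and 0.79. AT3G03270 and AT3G23170 had many more, with 247 and 293 probes above 0.8. The nearest to AT3G03270 was AT3G16740 at 0.92 and the nearest to AT3G23170 was AT4G37190 at 0.94, and these fell to 0.84 and 0.87 without FWA_16h and GAI_8h. PDC2 was most like THFS, which makes formyltetrahydrofolate, at 0.77, and the nearest named probe to AT4G24110 had an r of 0.59. Counting probes with no gene name, the highest r was 0.83 for PDC2 and 0.71 for AT4G24110.

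The rest of the pathway was followed with a list of 51 other low oxygen genes, of which 7 are named on the array, with 11 probes. The list was drawn up with earlier results of these data known, so it is not independent of them. Over the 14 lines 12 of 154 tests were called, 11 lower and 1 higher (limma, adjusted over all probes), with a median of -0.08, beside 0.521% lower and 0.646% higher over all probes. FD held 6 of these, in a line where 3.06% of all probes were called lower and 2.79% higher, GI 4, FWA 1 and FLC20 1. Of all 13824 probes, 100 were called lower in GI, 39 in FWA and 247 in FLC20. The 4 probes of AT4G27450 account for all but 3 of the 12 calls. On probe SP0000119078 of AT4G27450 the FD arrays read -1.73, -1.30, -0.92 and -1.73, and the GI arrays lay between -1.18 and -2.004, so all 8 were below 0. AT4G27450 fell in FD on all 4 of its probes, by 1.42 ± 0.21 (adjusted p 6.5e-05), 1.26, 1.04 and 0.81 on the log2 scale, and in GI on all 4 by 1.48 ± 0.26 (adjusted p 0.00135), 1.26, 1.18 and 0.73. Its FWA call, -0.54 on SP0000118480, had a limma adjusted p of 0.048. All 4 GI calls were lost when arrays were weighted by their quality, with adjusted p between 0.092 and 0.30 by limma. The call of SP0000124501 in FD was lost without FD_16h replicate 2. Over the alternatives tried, the GI result of SP0000118480 was weaker in 6 and the same in 7. For each other probe of AT4G27450 in GI it was weaker in 3 and the same in 10.

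AT4G17260, a lactate dehydrogenase, which makes lactate from pyruvate in the other branch of fermentation, read 0.28, 0.62, 0.68 and 0.41 on the 4 FD arrays with probe SP0000126662, all above 0. It rose in FD by 0.50 ± 0.13 (limma adjusted p 0.016), and the call was lost without FD_8h replicate 1, FD_8h replicate 2 or FD_16h replicate 1. In GI the same probe of AT4G17260 stood at 0.40 ± 0.16 and was not called. Its highest line mean was in FT, at 0.57 ± 0.13 with arrays at 0.23, 0.55, 1.24 and 0.25, where it was not called either (limma adjusted p 0.15). Over the 13 lines, which share the wild type as comparator, it rose by 0.25 ± 0.04 (limma adjusted p 5.7e-06). In that mean 1884 of 13824 probes were called higher and 1635 lower. Of the 11 probes of the list, only SP0000126662 was called higher there, and 5 were called lower. AT4G27450 holds 4 of these 11 probes, so the count is not one of genes. The other probe of AT4G17260, SP0000126677, stood at 0.07 in FD and was not called. AT4G17260 on SP0000126662 ran against AT1G19530 over the groups, with an r of -0.68, and with PDC2 at 0.56. TIL, a temperature-induced lipocalin, fell in FD by 0.39 ± 0.10 and in FLC20 by 0.35 ± 0.10 (limma adjusted p 0.019 and 0.040), and each call was lost without any 1 of that line's 4 arrays. Over the alternatives tried, the result of TIL in FLC20 was weaker in 12 and the same in 2. That in FD was weaker in 5, reversed in 1 and the same in 8. AT5G45960, AT4G33560, AT2G15880 and AT5G44730 were not called in any single line. In FCAVRN2_16h against FCA, AT5G44730 rose by 0.45 and AT2G15880, an extensin gene, fell by 0.69 (limma adjusted p 0.042 for both). Calls were common in that comparison, at 1085 of 13824 probes, 635 lower and 450 higher.

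A list of 13 genes of darkness and sugar starvation, of which 5 are on the array with 9 probes, was followed beside the members. It too was drawn up with earlier results of these data known. AT3G15450, a dark-induced relative of AT4G27450, fell on both its probes by 1.25 and 1.06 in FD and by 1.17 and 1.04 in GI (limma adjusted p at most 0.0085). How these calls change under other settings is not given here. Over the 14 lines 6 of the 126 tests of this list were called, 5 lower and 1 higher, beside 0.521% lower and 0.646% higher over all probes. FD held 3 of the 6 and GI 2, and 4 of these 5 are the probes of AT3G15450. Of all probes 3.06% were called lower in FD and 0.723% in GI. Of 10 root marker genes only EXPA7, a root hair expansin, is on the array. Its 14 line means ran from -0.15 to 0.22 with 0 calls (0 at an unadjusted p under 0.05). The part of sugar state or tissue make-up in the member values was not tested.

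The comparison of day lengths asks whether the members' ratios differ between 16 h and 8 h of light within a line. The rule that chose the genes took in the ratios of both day lengths, so these tests are not independent of that choice. No member probe was called in any line: 0 of 126 tests by limma had an adjusted p under 0.05, and 9 had an unadjusted p under 0.05. Over all probes 0.0109% were called, and 11654 of 193536 tests had an unadjusted p under 0.05. The arrays of both day lengths did not overlap in 42 of the 126 cases, beside 32% over all probes.

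FY, a polyadenylation factor of the autonomous pathway, had the largest differences for AT1G19530, AT5G10040 and AT4G39675. AT1G19530 read 0.26 and 0.19 at 8 h and -0.92 and -0.68 at 16 h, a difference of -1.03 ± 0.35 (limma adjusted p 0.24). AT5G10040 read -0.20 and 0.14 at 8 h and -1.13 and -0.99 at 16 h, a difference of -1.03 ± 0.42 (limma adjusted p 0.32). For AT4G39675 the 8 h arrays were at exactly 0 and 0.01 and the 16 h arrays at -1.24 and -0.85, a difference of -1.05 ± 0.43 (limma adjusted p 0.32). In each of these genes both 16 h arrays of FY lay below both 8 h arrays, and none of the differences passed the threshold.

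FPA, an RNA-binding protein of the same pathway, stood the other way round. AT1G19530 read -0.59 and -0.94 at 8 h and -0.03 and 0.04 at 16 h, a difference of 0.77 ± 0.35 (limma adjusted p 0.61). AT5G10040 differed by 0.73 ± 0.42 and AT4G39675 by 0.63 ± 0.43. All 9 member probes had a positive difference in FPA, beside 7099 of all 13824 probes. The 8 h arrays of FPA were unlike: AT5G10040 read -0.89 and AT4G39675 -0.86 on FPA_8h replicate 1, and -0.29 and -0.10 on replicate 2. In GI and FD, where the genes were lowest, AT1G19530 differed between day lengths by -0.31 ± 0.43 in GI and by 0.02 ± 0.35 in FD. FHA, the line of cryptochrome 2, differed by -0.89 ± 0.43 for AT4G39675 and by -0.75 ± 0.29 for AT4G10270. When the 4 FHA arrays were fitted alone the former was called, with a limma adjusted p of 0.046. That fit leaves almost no residual degrees of freedom.

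In FWA the pair AT3G03270 and AT3G23170 differed by 1.00 ± 0.30 and 1.12 ± 0.32 (limma adjusted p 0.27 and 0.26). Without FWA_16h replicate 2 the differences were 0.31 and 0.22. Without FWA_16h replicate 1 they were 1.70 and 2.02 and were called (limma adjusted p 0.00061 and 4.5e-05). That leaves the array that stands apart as the only one of FWA_16h, and the fit assumes that it varies like the arrays of other groups. Also called in that fit was SP0000117005 of AT1G19530, at 0.61. In the mean of the 13 lines 0 of 9 member probes were called by limma (1 at an unadjusted p under 0.05), beside 5.44% of all probes (2916 of 13824 at an unadjusted p under 0.05). The largest, AT4G39675 at -0.31 ± 0.12, had a limma adjusted p of 0.13. That of AT4G39675 was -0.37 without FVE_16h replicate 2 and -0.39 without SOC1_16h replicate 1, and either omission leaves 1 array in its group. In the mean of the 12 lines without FVE, whose day length is in doubt, 0 of 9 were called, beside 497 of all 13824 probes. The lowest of the 9 differences there was -0.27.

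**Figure D4:**
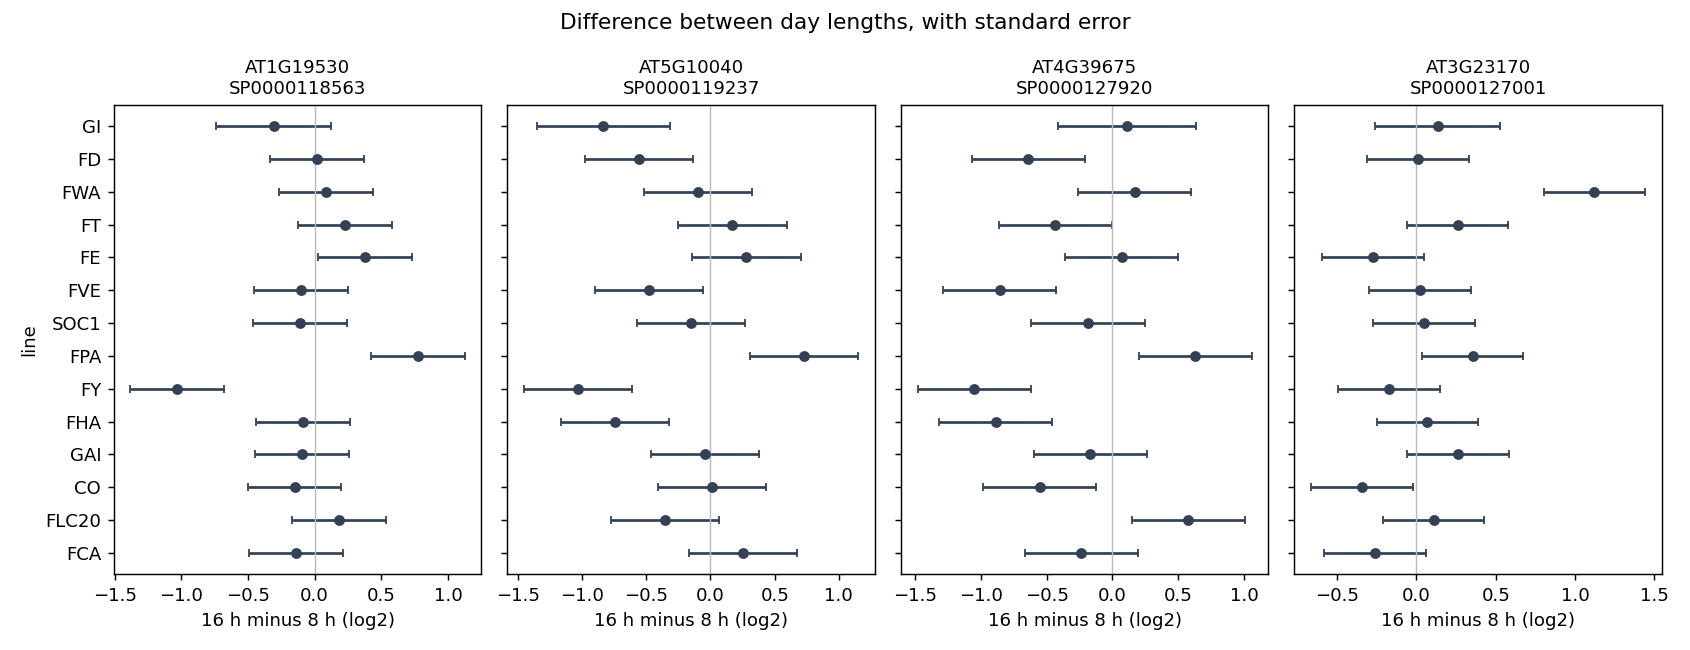
Difference of log2 ratios between 16 h and 8 h of light (horizontal axis) with its standard error in the 14 single lines (vertical axis) for AT1G19530, AT5G10040, AT4G39675 and AT3G23170. FY lies furthest to the left in the first 3 panels, near -1.03 to -1.05, FPA furthest to the right in them, and FWA furthest to the right for AT3G23170 at 1.12. None of the differences was called.

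In the double mutants 0 of 36 tests of the members were called by limma (1 at an unadjusted p under 0.05), with 2 arrays per group. Over all probes 1.97% were called, and 1085 of these 1088 calls fell in FCAVRN2_16h against FCA. An unadjusted p under 0.05 was reached in 5221 of 55296 tests over all probes. AT1G19530 was lowest in FCAVRN1 against FCA, with arrays at -0.28 and -0.78 and a mean of -0.53 ± 0.25, the 19th lowest of 13824 probes there. In FCAVRN1 against WT, AT5G10040 read -0.13 and 0.61 and AT4G39675 0.14 and 0.45. AT4G24110 averaged -0.35 in FCAVRN2_16h against FCA, with arrays at -0.71 and 0.01.

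The orientation of the dyes moved with several members. Unswapped arrays read higher than swapped ones by 0.27 ± 0.09 for AT1G19530, 0.33 ± 0.11 for AT5G10040 and 0.19 ± 0.06 for AT4G24110, and lower by 0.10 ± 0.04 for PDC2 (limma adjusted p 0.026, 0.023, 0.020 and 0.046). These 4 of 9 compare with 24.4% of all probes. Each group holds both orientations, so the term cancels in the group means, and AT1G19530 was below 0 on 24 of 32 swapped and 20 of 32 unswapped arrays.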

How the data were processed

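The authors deposited linear ratios of both channels, after a spatial normalization per the labels' descriptions. No source used here gives the background correction, spot filters or direction of the ratio, and signal over background is unknown. Of 884736 ratios, 146 were missing, none of them of a member. Between 10.3% and 11.6% of an array's ratios were exactly 1, as were 45 of 576 member ratios. Their log2 was analysed with limma 3.58.1 in R 4.3.3: 1 fit of the 64 arrays held group means and a dye orientation term. Both GI_16h arrays are labelled biological replicate 1, so their average counted as a single replicate. Benjamini-Hochberg adjustment ran over 13824 probes within each contrast, two-sided, and called means an adjusted p under 0.05. The fit was tested on simulated data. The labels number biological replicates without saying what separates them, so p-values measure only the spread between arrays, and the number of arrays limits the precision. The members and lists were chosen with earlier results of these data known. Text names all member probes, the largest called probes of each list and the 3 most like named probes. Alternatives in scaling, weights, sign, replicates and replicate block are given in the closing section.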

Additional observations from a re-analysis of the deposited data

How the results depend on the processing

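Counts of calls for the member probes in single lines (4), for the other low oxygen genes (12), for day lengths in each line (0) and for the mean day length difference (0) moved by over 1.5 times under few settings. With GI_16h arrays as separate replicates the first was 7. With the sign of swapped arrays turned, and with the other lines' mean as the reference, the first and second were both 0. With probes averaged per gene the second was 4 genes, which counts AT4G27450 once. With the arrays of each line alone the third was 1. Leaving out 1 array at a time gave 3 to 8, 9 to 17, 0 to 3 and 0 to 1, in that order, with the lone array of a group assumed to vary like those of other groups. The replicate block gave 5, 9, 0 and 0. The replicate numbers did not pair the samples: same-numbered arrays of a line correlated above 0.1 in 2 of 13 lines, from -0.19 to 0.26. Turning the sign of the swapped arrays reversed these values: AT1G19530 to 0.21 in FD, 0.11 in FWA and 0.16 over the 13 lines, AT5G10040 to 0.29 in FD and 0.15 over the 13 lines, AT4G24110 to 0.063 over the 13 lines, AT4G27450 in FD to 0.091, 0.096, 0.16 and 0.31, AT4G17260 in FD to -0.018 and TIL in FD to 0.066. In GI, AT1G19530 shrank to -0.0056 and AT5G10040 to -0.040, and AT4G39675 stood at -0.42 and AT4G10270 at -0.20. Estimates that were not called changed sign as well. PDC2 went to -0.13 in GI, -0.10 in FD and -0.061 over the 13 lines. The last was then called (limma adjusted p 0.033). AT4G39675 went to 0.14 and AT4G10270 to 0.090 in FD, and AT4G24110 to 0.21 in FD and 0.17 in GI. AT3G23170 went to -0.30 and AT3G03270 to -0.29 in GI. This follows from the construction of that setting, and which sign is right is not settled. Setting ratios of exactly 1 to missing, chosen after seeing the data, gave 5, 11, 0 and 0. The GI arrays alone could not be fitted after averaging, since no residual degrees of freedom remain. The fit of each line alone was not run for the mean over 13 lines.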
